A study of Homo sapiens with 6 samples.

Results

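The ubiquitin-specific proteases (USP) are the biggest family of human deubiquitinases, the enzymes that take ubiquitin off proteins. The rows examined here were those of the expression table whose gene symbol is USP followed by a number, with an optional X or L, and this rule took 44 of the 11048 listed genes. The measurement was the mRNA of MM1.S cells, a human multiple myeloma line. The cells had been kept for 6 h in DMSO as the vehicle, in CCF642 at 3 µM, or in CCF642-34, also at 3 µM. CCF642 is an inhibitor of protein disulfide isomerase PDIA1, and CCF642-34 is an analogue of it. There were 2 libraries per group, made from 1 cell line with no genetic change named in the labels, and both compounds were used at the same dose and time. Nothing in the labels says that the 2 libraries of a group came from separate cultures. Each p-value therefore measures only spread between these libraries, which may be technical. Most of that spread was shared over all genes and not the gene's own (3 residual and 42.9 prior degrees of freedom).

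Ubiquitin chains mark proteins for the proteasome, for sorting through endosomes, or for a change of partner, and a USP enzyme reverses the mark. Misfolded proteins of the endoplasmic reticulum (ER) are carried back to the cytosol, tagged with ubiquitin and degraded. Myeloma cells secrete large amounts of antibody protein and are known for their dependence on this route and on the proteasome. Single USP enzymes have different substrates, so the members are described by role below.

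The promoters of 3 members are shown. USP36 had the largest increase of the members, and USP14 and USP13, both of the ubiquitin recycling group, were called in opposite directions. The 100 bases before the gene start are from RefSeq on GRCh38.p14, in the direction of the gene, and the submitters' processing notes name hg19, another build. Capitals mark an E-box (CACGTG) in USP36 and an antioxidant response element (ARE, TGACNNNGC, found on the reverse strand in USP14) in the others.
USP36, chr17:78840815-78840914, minus strand: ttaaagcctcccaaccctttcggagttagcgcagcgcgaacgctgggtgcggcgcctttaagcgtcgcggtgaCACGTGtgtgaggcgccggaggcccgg
USP14, chr18:158457-158556, plus strand: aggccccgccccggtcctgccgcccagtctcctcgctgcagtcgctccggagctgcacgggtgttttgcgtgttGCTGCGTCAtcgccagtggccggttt
USP13, chr3:179652940-179653039, plus strand: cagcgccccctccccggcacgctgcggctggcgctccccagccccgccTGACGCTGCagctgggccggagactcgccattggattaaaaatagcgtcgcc

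RefSeq held a 300-base promoter for 35 of the 44 members and for 8871 of all listed genes, and each motif was searched on both strands. The ARE occurred in 3 member promoters (USP13, USP14 and USP38), or 8.57%, against 15.4% of all promoters. The E-box occurred in 3 (USP28, USP32 and USP36), or 8.57%, against 10.4%. Of these, USP36 rose and USP28 fell with both compounds, and USP32 was not called with either in the fit reported. Whether a motif had a part in any change was not tested. The letters TGACG, which are part of the cyclic AMP response element (CRE), were in 12 member promoters (34.3%, against 35.0% of all), and some of these lie within an ARE. The GC box (GGGCGG) was in 29 (82.9%, against 70.3%) and CCAAT in 10 (28.6%, against 37.2%). No member promoter held the full CRE (TGACGTCA), the C/EBP-ATF element (TGATGNAA), AP-1 (TGANTCA), the heat shock element (GAANNTTC), the ER stress element (the ERSE) or the unfolded protein response element (TGACGTGG), which were in 3.38%, 1.6%, 4.33%, 4.41%, 0.169% and 0.992% of all promoters.

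The authors deposited CPM, the reads on a gene scaled to a common total of reads per library, and the values below are CPM divided by a TMM factor (trimmed mean of M-values) of each library. They are called scaled CPM. The DMSO and CCF642 libraries held 20567313 to 22989979 reads. The CCF642-34 totals, 28459677 and 27797578 reads, are less certain, because the lowest value above 0 in these libraries came to 5 and 3 reads and the share of 1 read was taken from the smallest gap between values. Fold changes and their standard errors come from limma on log2(scaled CPM + 1), which understates the change of genes with low values, and a gene was called at a Benjamini-Hochberg adjusted p under 0.05 over all 11048 genes. All 8 plasma cell markers examined were listed, and their summed CPM was 8706.84 and 8649.34 with DMSO, 5784.76 and 5841.43 with CCF642, and 6634.54 and 6593.45 with CCF642-34. Monocyte markers (0 of 4) were not listed, and 1 of 4 T cell markers, 1 of 4 stromal markers and 2 of 4 epithelial markers were listed at a summed CPM of at most 3.19, 10.53 and 3.0. The stromal gene, COL1A1, was at 1.09 and 1.5 CPM with DMSO and at 8.99 and 10.53 with CCF642. In bulk RNA, fewer cells of a type and less RNA per cell cannot be told apart, and the part of these markers in the results was not tested.

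Of 51 USP genes in the lists used here, 44 were listed and 7 were not (USP2, USP6, USP26, USP29, USP41, USP44 and USP50). Among the 44, 40 had a mean deposited CPM of at least 5, and USP18, USP27X, USP43 and USP51 were below it. Per kilobase of exon, the order with DMSO was led by USP1 (48.4 scaled CPM per kb), USP7 (44.9), USP22 (42.5), USP5 (35.7) and USP14 (28.0). USP18 (0.300) and USP43 (0.248) were lowest. With CCF642 the order was led by USP22 (68.4), USP36 (55.7), USP7 (51.6), USP1 (48.1) and USP14 (47.0), and USP36 had been at 15.3 with DMSO. With CCF642-34, USP22 stood at 70.9, USP7 at 48.3, USP1 at 43.5, USP14 at 42.2 and USP5 at 34.3. USP36 was below these at 26.7.

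**Figure D1:**
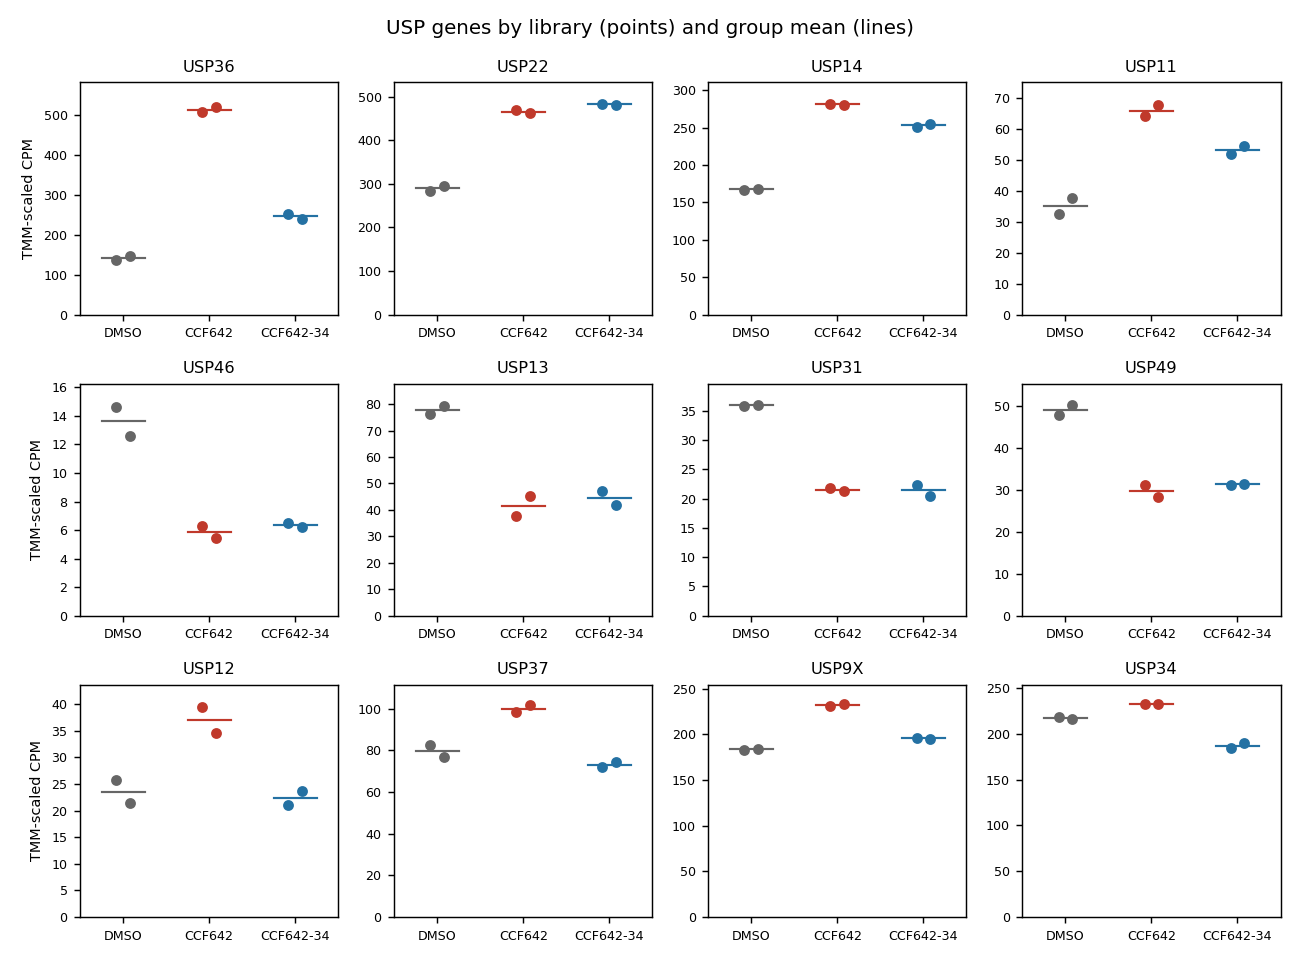
TMM-scaled CPM (vertical axis, from 0, its own range in each panel) of 12 USP genes in the 3 groups (horizontal axis). Points are single libraries and lines are group means of 2 libraries. USP36 ran from 137.6 with DMSO to 520.6 with CCF642, with CCF642-34 between, while USP46, USP13, USP31 and USP49 were lower with both compounds and USP12 and USP37 were higher with CCF642 alone.

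CCF642 against DMSO asks which USP mRNAs changed with the parent compound. Of the 44 members, 21 were higher and 9 were lower, which is 68.2% called against 63.1% of all genes. The higher calls are to be read against 31.8% of all genes called higher and the lower calls against 31.3% called lower. At 1.5-fold or more, 6 members were higher and 4 were lower, against 20.7% of all genes called in either direction (11.5% higher and 9.22% lower). At an unadjusted p under 0.05 and 2-fold or more, 2 members passed, USP36 upward and USP46 downward, against 6.49% of all genes (4.5% higher and 1.99% lower). The median log2 fold change of the members was 0.18, against −0.01 over all genes, and it was 0.12 over the members with a mean CPM of at least 5. The members' median was −0.0023 and 0.0023 in the DMSO libraries, 0.12 and 0.18 in the CCF642 libraries and 0.10 and 0.03 in the CCF642-34 libraries, each relative to the DMSO mean.

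CCF642-34 against DMSO asks the same of the analogue, with the same 2 DMSO libraries as reference. Here 16 members were higher and 13 were lower, or 65.9% called against 57.6% of all genes, with backgrounds of 29.7% higher and 27.9% lower. Without DMSO replicate 1 the number called was 19. At 1.5-fold or more, 4 members were higher and 4 were lower, against 15.3% of all genes (8.14% higher and 7.2% lower). No member passed 2-fold, against 3.88% of all genes, although 31 members had an unadjusted p under 0.05 in limma. The number passing 2-fold depends on the pseudocount. USP46 was at −0.99 on the log2(scaled CPM + 1) scale and passed at −1.04 with a pseudocount of 0.5. It also passed with library size alone (−1.07), without DMSO replicate 2 (−1.08) and without CCF642-34 replicate 1 (−1.02). The members' median was 0.10, against 0.01 over all genes. This median was 0.026 without CCF642-34 replicate 1, 0.048 without DMSO replicate 1, 0.0063 with library size alone and 0.023 over the members with a mean CPM of at least 5.

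**Figure D2:**
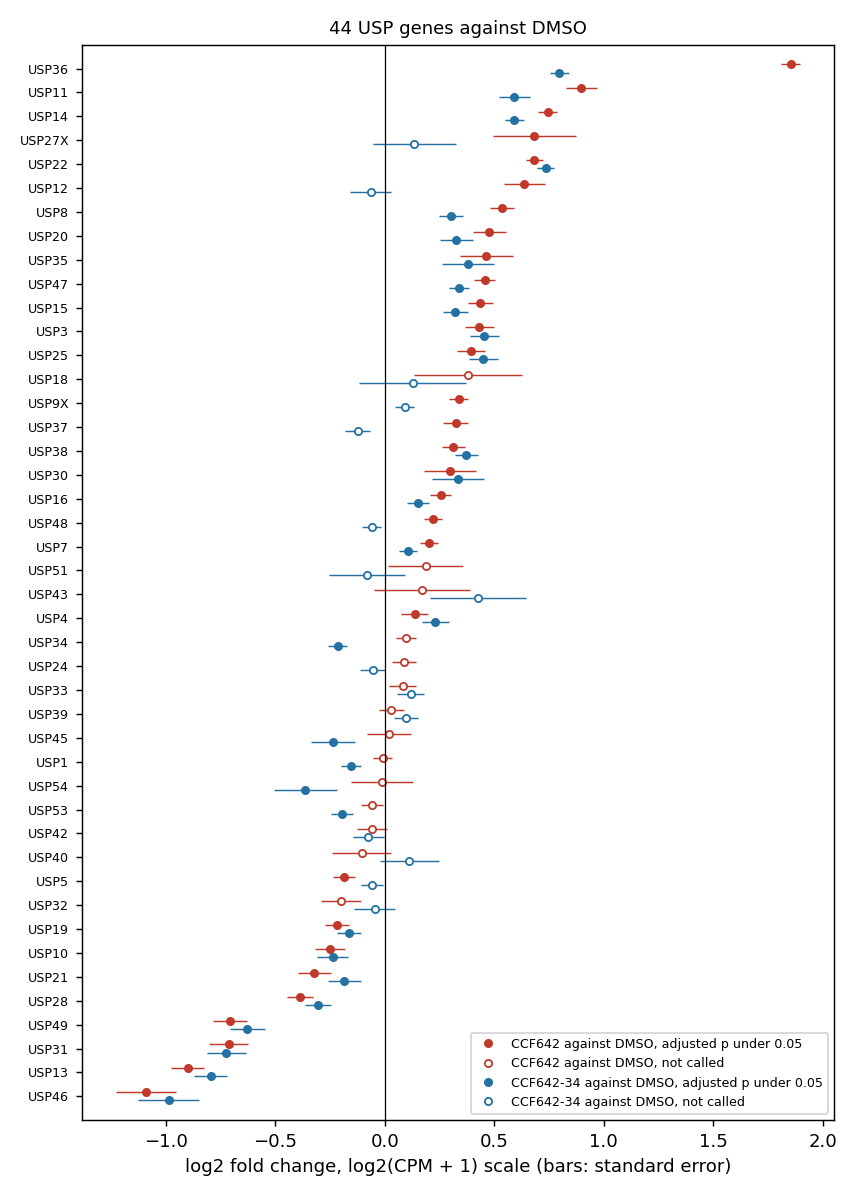
log2 fold change (horizontal axis, log2(CPM + 1) scale) of 44 USP genes, ordered by the change with CCF642 (vertical axis). Red is CCF642 and blue is CCF642-34, each against DMSO, with bars for the standard error and open points for genes not called. USP36 stands alone at the top with 1.85 and 0.80, and USP46 at the bottom with −1.09 and −0.99.

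When only library size was used for scaling, the median of all 11048 log2 fold changes lay at −0.13 for CCF642 and at −0.08 for CCF642-34, so every value here is relative to the bulk of the genes. All calls kept their direction under that scaling. It ended the CCF642 calls of USP4, USP7, USP30 and USP48 and the CCF642-34 calls of USP7, USP16 and USP30. It added calls of lower expression for USP1, USP32, USP42 and USP53 with CCF642 and for USP5, USP24, USP37, USP42 and USP48 with CCF642-34. The members' median with CCF642 was 0.073 under it. A gene-wise linear model, which shares no spread between genes, ended 7 of the 30 CCF642 calls (USP4, USP7, USP10, USP19, USP27X, USP30 and USP35) and 12 of the 29 CCF642-34 calls (USP4, USP7, USP8, USP10, USP16, USP19, USP20, USP30, USP35, USP45, USP53 and USP54).

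The list called ubiquitin recycling holds 3 members, USP14, USP13 and USP5, and they did not move together. USP14, which sits on the proteasome and trims ubiquitin from its substrates, was at 166.6 and 168.4 scaled CPM with DMSO, 281.7 and 280.6 with CCF642, and 251.1 and 254.6 with CCF642-34. The 3 groups of libraries did not overlap. With 2 libraries per group such a separation was common among the members, here and below, and its share over all genes is not given. USP14 rose 1.67-fold with CCF642 (log2 0.74 ± 0.04 SE, limma adjusted p = 3.004e-20) and 1.51-fold with CCF642-34 (0.59 ± 0.04, adjusted p = 2.002e-16). USP13 was at 76.29 and 79.2 with DMSO, 37.64 and 45.1 with CCF642, and 47.19 and 41.75 with CCF642-34. All 4 treated libraries lay below both DMSO libraries. USP13 fell by 0.90 ± 0.07 on the log2 scale with CCF642 (adjusted p = 6.556e-15) and by 0.79 ± 0.07 with CCF642-34 (adjusted p = 5.04e-13). USP5, also called isopeptidase T, takes apart unanchored ubiquitin chains and is the closest relative of USP13. Its libraries were at 133.3 and 133.9 with DMSO, 118 and 116.9 with CCF642, and 130.8 and 125.7 with CCF642-34, and it fell by 0.18 ± 0.05 with CCF642 (adjusted p = 0.00138). With CCF642-34 its difference was −0.06 and was not called (adjusted p = 0.325).

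USP36 stood apart within the nucleolus and splicing group, where 1 of 3 members was called with each compound. Of all genes, 63.1% were called with CCF642 and 57.6% with CCF642-34. USP36 is a deubiquitinase of the nucleolus, where ribosomal RNA is made, and is known to act on nucleolar proteins and on MYC. It was at 137.6 and 145.8 scaled CPM with DMSO, 508 and 520.6 with CCF642, and 253.1 and 240.6 with CCF642-34. The groups lay far apart relative to the spread within each. The increase was 3.61-fold with CCF642 (log2 1.85 ± 0.04, adjusted p = 3.984e-36) and 1.74-fold with CCF642-34 (0.80 ± 0.04, adjusted p = 5.232e-21). USP42, its closest relative, had log2 differences of −0.06 and −0.07, neither called. USP39, a splicing factor with the USP fold but no protease activity, ran from 85.13 to 91.84 over the 6 libraries and was not called with either compound (0.03 and 0.10).

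In the histone and SAGA group, whose members remove ubiquitin from histones, 5 of 9 rose and 3 fell with CCF642. With CCF642-34, 3 rose and 3 fell. The shares of all genes called higher and lower were 31.8% and 31.3% with CCF642, and 29.7% and 27.9% with CCF642-34. USP22, the deubiquitinase of the SAGA transcription coactivator complex, was at 284 and 294.9 scaled CPM with DMSO, 468.7 and 462.1 with CCF642, and 483.7 and 481.2 with CCF642-34. All treated libraries were above DMSO, and the increase was 1.61-fold (0.68 ± 0.04, adjusted p = 2.165e-20) and 1.67-fold (0.74 ± 0.04, adjusted p = 2.218e-21). Its relative USP27X was low throughout, at 1.775 and 2.708 with DMSO, 4.143 and 4.163 with CCF642, and 2.776 and 2.285 with CCF642-34. USP27X rose with CCF642 (0.68 ± 0.19, adjusted p = 0.00159), a call that was lost without DMSO replicate 1 (0.47, adjusted p = 0.0728), and its difference with CCF642-34 was 0.13 (adjusted p = 0.563). The third relative, USP51, was not called (0.19 and −0.08).

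USP12 and USP46 are near-identical enzymes that need the activator WDR48. USP12 was at 25.68 and 21.35 scaled CPM with DMSO, 39.51 and 34.65 with CCF642, and 21.1 and 23.72 with CCF642-34. Its CCF642 libraries were above all others, and the DMSO and CCF642-34 libraries overlapped. It rose 1.56-fold with CCF642 (0.64 ± 0.09, adjusted p = 7.38e-08), and the difference with CCF642-34 was −0.06 (adjusted p = 0.585). USP46 was at 14.61 and 12.61 with DMSO, 6.265 and 5.458 with CCF642, and 6.512 and 6.202 with CCF642-34. Both compounds lowered it, by 1.09 ± 0.14 (adjusted p = 2.107e-09) and by 0.99 ± 0.14 on the log2 scale (adjusted p = 3.015e-08), the largest decreases among the members. How reads of regions shared by close relatives such as these were assigned is not stated in the sources used here.

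Of the remaining histone enzymes, USP49, which acts on histone H2B, was at 47.76 and 50.08 scaled CPM with DMSO, 31.02 and 28.22 with CCF642, and 31.21 and 31.45 with CCF642-34. It fell by 0.71 ± 0.08 (adjusted p = 6.745e-11) and by 0.63 ± 0.08 (adjusted p = 2.238e-09). USP3, an H2A deubiquitinase, rose by 0.43 and 0.45 on the log2 scale. USP16, another enzyme of H2A, rose by 0.26 and 0.15, and the CCF642-34 call was lost without DMSO replicate 2 (0.15, adjusted p = 0.0628) and without CCF642-34 replicate 2 (0.11, adjusted p = 0.119). USP21 fell by 0.32 with CCF642 and by 0.18 with CCF642-34. Its CCF642-34 call was lost without either library of either group compared, with the highest adjusted p, 0.153, without CCF642-34 replicate 2 (−0.16). In GENCODE release 29, 22.7% of the exonic bases of USP3 are shared with the antisense gene USP3-AS1, and the strand setting of the counting is not given in the sources used here, so reads of the pair cannot be told apart.

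In the DNA damage, p53 and cell cycle group, 4 of 8 rose and 2 fell with CCF642, and 2 rose and 4 fell with CCF642-34. Over all genes, 31.8% were called higher and 31.3% lower with CCF642, and 29.7% and 27.9% with CCF642-34. USP47, an enzyme of the base excision repair polymerase, rose by 0.46 and 0.34 on the log2 scale. USP7, which stabilises MDM2 and p53, rose by 0.20 (adjusted p = 4.309e-05) and by 0.11 (adjusted p = 0.0265). The second of these USP7 calls was lost without either library of either group compared, with the highest adjusted p, 0.192, without DMSO replicate 2 (0.09). USP28, known for stabilising MYC, was at 89.25 and 87.95 scaled CPM with DMSO, 65.17 and 70.03 with CCF642, and 69.03 and 74.25 with CCF642-34. It fell by 0.39 ± 0.06 (adjusted p = 2.682e-07) and by 0.30 ± 0.06 (adjusted p = 2.673e-05). USP10, which acts on p53 in the cytoplasm, fell by 0.25 and 0.24, and both calls were lost without DMSO replicate 1 (−0.21, adjusted p = 0.0562, and −0.19, adjusted p = 0.0833).

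USP37 and USP48 were called with CCF642 and, in the fit reported, not with CCF642-34. USP37, a cell cycle enzyme that acts on cyclin A, was at 82.44 and 76.85 scaled CPM with DMSO, 98.17 and 101.7 with CCF642, and 71.85 and 74.14 with CCF642-34. It rose by 0.32 ± 0.06 with CCF642 (adjusted p = 3.557e-06), and its CCF642-34 value was −0.12 (adjusted p = 0.063). That value was called as a decrease with library size alone (−0.21, adjusted p = 0.00159), with only the groups compared in the fit (−0.13, adjusted p = 0.0387), and without CCF642 replicate 1 (−0.12, adjusted p = 0.0402) or CCF642 replicate 2 (−0.12, adjusted p = 0.0407). USP37 shares 32.8% of its exonic bases with VIL1 on the other strand, and VIL1 was not among the listed genes. USP48 rose by 0.22 with CCF642 and differed by −0.06 with CCF642-34 (adjusted p = 0.245), or by −0.15 with library size alone (adjusted p = 0.00277). USP1, which acts with WDR48 on FANCD2 and PCNA in DNA repair, was at −0.01 with CCF642 (adjusted p = 0.865) and fell by 0.15 with CCF642-34, a call lost without DMSO replicate 1 (−0.12, adjusted p = 0.102). USP45 was at 0.02 with CCF642 and fell by 0.24 with CCF642-34. The USP45 call was lost without either library of either group compared, with the highest adjusted p, 0.238, without DMSO replicate 2 (−0.19).

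In the ER and mitochondrial membrane group, 4 of 6 members rose and 1 fell with each compound. The backgrounds over all genes were 31.8% higher and 31.3% lower with CCF642, and 29.7% and 27.9% with CCF642-34. USP25, an enzyme of ER-associated degradation, was at 45.45 and 47.46 scaled CPM with DMSO, 59.06 and 63.74 with CCF642, and 64.23 and 63.37 with CCF642-34. It rose by 0.39 ± 0.07 (adjusted p = 1.017e-06) and by 0.45 ± 0.07 (adjusted p = 8.404e-08), with all treated libraries above DMSO. USP19, which has a form anchored in the ER membrane, was at 141.8 and 137.6 with DMSO, 120.5 and 119.7 with CCF642, and 133.8 and 116.4 with CCF642-34. It fell by 0.22 ± 0.05 with CCF642 (adjusted p = 0.000519) and by 0.16 ± 0.05 with CCF642-34 (adjusted p = 0.00908). The CCF642-34 call of USP19 was lost without DMSO replicate 1 (−0.14, adjusted p = 0.0954) and without CCF642-34 replicate 2 (−0.06, adjusted p = 0.423), and the value was −0.26 without CCF642-34 replicate 1.

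USP20, an ER-associated enzyme, rose by 0.48 and 0.33, and its relative USP33 was not called (0.08 and 0.12). USP30, which opposes the tagging of damaged mitochondria, was at 9.949 and 10.43 scaled CPM with DMSO, 11.82 and 13.74 with CCF642, and 12.88 and 13.35 with CCF642-34. It rose by 0.30 ± 0.12 (adjusted p = 0.0278) and by 0.34 ± 0.12 (adjusted p = 0.0147). The CCF642 call of USP30 was lost without CCF642 replicate 2 (0.20, adjusted p = 0.221), DMSO replicate 1 (0.27, adjusted p = 0.137) or DMSO replicate 2 (0.33, adjusted p = 0.0627). Its CCF642-34 call was lost without CCF642-34 replicate 2 (0.31, adjusted p = 0.087) or DMSO replicate 1 (0.30, adjusted p = 0.0942). USP35 rose by 0.46 and 0.38 from DMSO libraries at 9.536 and 12.7. Without DMSO replicate 1 both USP35 calls were lost (0.27, adjusted p = 0.102, and 0.19, adjusted p = 0.285), and without CCF642-34 replicate 1 the second was (0.29, adjusted p = 0.119).

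In the endosome and signalling group, 6 of 10 members rose and 1 fell with CCF642, and 5 rose and 2 fell with CCF642-34. Among all genes, 31.8% were called higher and 31.3% lower with CCF642, and 29.7% and 27.9% with CCF642-34. USP4, USP11 and USP15 are close relatives that act on TGF-beta signalling. USP11 was at 32.36 and 37.65 scaled CPM with DMSO, 64.16 and 67.77 with CCF642, and 51.81 and 54.48 with CCF642-34, so that the groups did not overlap. USP11 rose 1.86-fold (0.90 ± 0.07, adjusted p = 2.759e-15) and 1.51-fold (0.59 ± 0.07, adjusted p = 1.051e-09). USP15 rose by 0.44 and 0.32, and USP4 rose by 0.14 (adjusted p = 0.047) and 0.23 (adjusted p = 0.00129). Both USP4 calls were lost without DMSO replicate 1 (0.05, adjusted p = 0.59, and 0.15, adjusted p = 0.122). The CCF642 call of USP4 was also lost without CCF642 replicate 2 (0.11, adjusted p = 0.163) or either CCF642-34 library (0.14, adjusted p = 0.0559 and 0.0599), and it was 0.22 without DMSO replicate 2.

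USP8, which removes ubiquitin from receptors at the endosome, was at 91.27 and 90.61 scaled CPM with DMSO, 124.7 and 140.3 with CCF642, and 112 and 113.1 with CCF642-34. It rose by 0.54 ± 0.05 (adjusted p = 5.849e-12) and by 0.30 ± 0.05 (adjusted p = 4.945e-06). USP9X, known to stabilise MCL1, was at 182.4 and 184.5 with DMSO, 230.9 and 233.1 with CCF642, and 196.1 and 195 with CCF642-34. It rose by 0.34 ± 0.04 with CCF642 (adjusted p = 5.892e-09), and with CCF642-34 the difference of 0.09 was not called (adjusted p = 0.073), although it was without CCF642 replicate 1 (adjusted p = 0.0433) or CCF642 replicate 2 (adjusted p = 0.0434). USP38 rose by 0.31 and 0.37.

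The decreases of the endosome and signalling group were those of USP31 and USP34. USP31 was at 35.91 and 35.96 scaled CPM with DMSO, 21.78 and 21.32 with CCF642, and 22.28 and 20.53 with CCF642-34. It fell by 0.71 ± 0.09 (adjusted p = 1.489e-09) and by 0.72 ± 0.09 (adjusted p = 1.376e-09), and 23.0% of its exonic bases overlap AC127459.1 on the same strand. USP34, an enzyme of WNT signalling, was at 218.3 and 216.6 with DMSO, 232.7 and 232.5 with CCF642, and 184.2 and 190.3 with CCF642-34. Its CCF642 value of 0.10 was not called (adjusted p = 0.0528, and 0.0399 to 0.049 in 5 alternatives), and it fell by 0.21 ± 0.04 with CCF642-34 (adjusted p = 4.727e-05). Of its exonic bases, 18.0% overlap the pseudogene AHSA2P on the other strand. USP24 (0.09 and −0.06) and USP32 (−0.20 and −0.05) were not called with either compound. Calls appeared with CCF642 for USP24 without CCF642 replicate 1 (0.14, adjusted p = 0.0482) and for USP32 without CCF642 replicate 2 (−0.37, adjusted p = 0.000772).

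USP18, which removes the ubiquitin-like protein ISG15 from its targets, was at 0.5771 to 1.665 scaled CPM. It was not called with either compound in the fit reported (0.38 and 0.13). Without CCF642 replicate 1 its CCF642 value was 0.70, which rests on CCF642 replicate 2 (1.665). The other libraries were at 0.798 or below. Listed genes reached at least 1.505 CPM in a library, so USP18 was listed through CCF642 replicate 2 alone. Among the 4 members of the group with other or no known activity, none was called with CCF642 and 2 fell with CCF642-34. The shares over all genes were 63.1% called with CCF642 and 27.9% called lower with CCF642-34. Against DMSO, USP53 fell by 0.20 with CCF642-34 (limma adjusted p = 0.000998), and its value with CCF642 was −0.06. USP54 fell by 0.36 with CCF642-34 against DMSO (limma adjusted p = 0.0273), and its value with CCF642 against DMSO was −0.01. The direct difference of USP54 between the compounds, −0.35, was not called (limma adjusted p = 0.0523). The USP54 call was lost without DMSO replicate 1 (−0.20, adjusted p = 0.384), CCF642-34 replicate 1 (−0.31, adjusted p = 0.144) or CCF642-34 replicate 2 (−0.41, adjusted p = 0.0608), and 16.1% of its exonic bases overlap PPP3CB-AS1. USP40 (−0.10 and 0.11) and USP43 (0.17 and 0.42) were not called, apart from USP43 with CCF642-34 without DMSO replicate 2 (0.70, adjusted p = 0.0249).

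Some close relatives had calls in opposite directions. Among the 11 groups of relatives with more than 1 listed member, USP12 rose with CCF642 (0.64) while USP46 fell (−1.09). USP25 rose with both compounds (0.39 and 0.45) while USP28 fell (−0.39 and −0.30). With CCF642-34, USP16 rose (0.15) while USP45 fell (−0.24), and both of these calls were lost in fits without 1 library. USP36 rose while USP42 was not called. USP5 and USP13 both fell with CCF642, by 0.18 and 0.90. USP35 and USP38 rose with both compounds, as did USP4, USP11 and USP15. USP22 and USP27X rose with CCF642, and USP53 and USP54 fell with CCF642-34. USP20 rose with both compounds and USP9X with CCF642, while their relatives USP33 and USP24 were not called. Over all genes, 31.8% were called higher and 31.3% lower with CCF642, and 29.7% and 27.9% with CCF642-34. Calls in both directions are therefore common among all genes. These values are set side by side, and the differences between relatives were not tested.

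**Figure D3:**
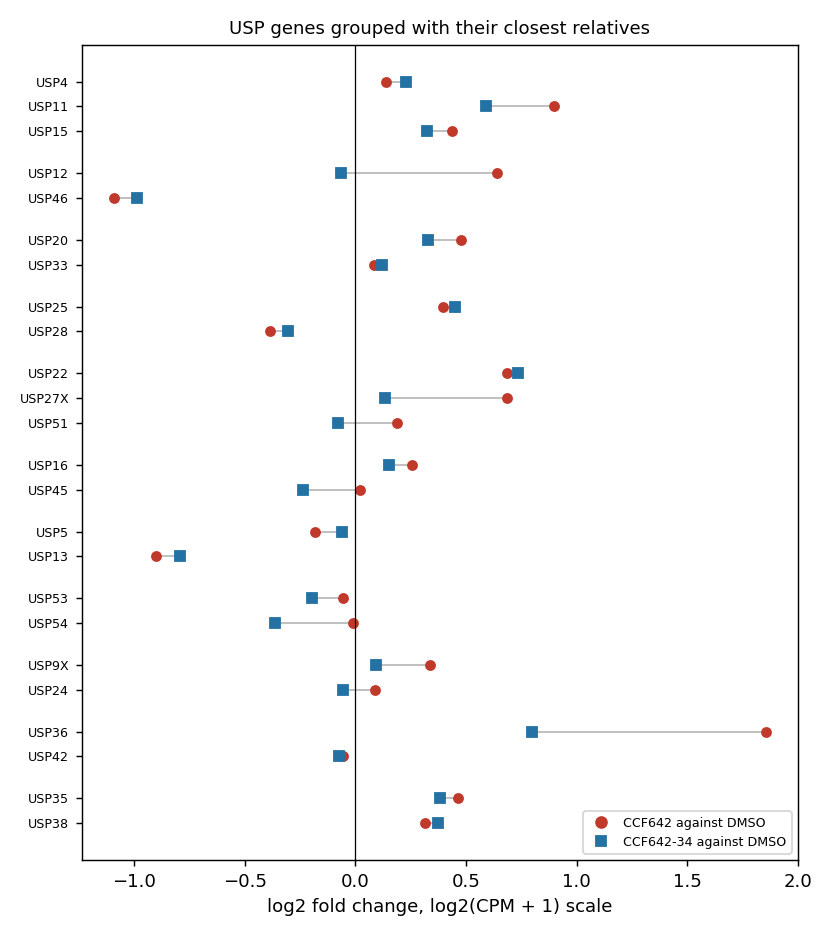
log2 fold change against DMSO (horizontal axis) for USP genes placed with their closest relatives (vertical axis). Red circles are CCF642 and blue squares are CCF642-34, joined by a line for each gene. USP12 and USP46 lie on opposite sides of 0 with CCF642 (0.64 and −1.09), and USP25 and USP28 do so with both compounds.

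CCF642-34 against CCF642 compares the compounds directly at the same dose and time, as 1 pair. Of the 44 members, 15 were lower and 1 was higher with CCF642-34 (36.4% called, against 33.4% of all genes, of which 17.5% were lower and 15.9% higher). Without CCF642-34 replicate 1 the number called was 9, and without CCF642-34 replicate 2 it was 10. At 1.5-fold or more, 2 members were lower, USP36 and USP12, against 2.49% of all genes (2.02% lower). At an unadjusted p under 0.05 and 2-fold or more, USP36 passed, and it was 1 of 34 such genes among all 11048 (0.308%, of which 0.299% were lower). The members' median difference was −0.09, against 0.01 over all genes, and leaving out CCF642 replicate 2 gave −0.029 and leaving out CCF642 replicate 1 gave −0.057.

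USP36 was lower by 1.06 ± 0.04 on the log2 scale with CCF642-34 (95% interval −1.14 to −0.97, adjusted p = 8.371e-25), at 0.481 times its CCF642 level. USP12 was lower by 0.70 ± 0.09 (−0.89 to −0.51, adjusted p = 5.293e-08), and its CCF642-34 libraries overlapped those with DMSO. USP37 was lower by 0.45 ± 0.06 (adjusted p = 2.333e-08), USP34 by 0.31 ± 0.04 (adjusted p = 2.058e-07) and USP11 by 0.31 ± 0.07 (adjusted p = 0.000734). USP48 differed by −0.28 (adjusted p = 1.226e-06) and USP9X by −0.25 (adjusted p = 2.045e-05). These 7 calls were kept in each of the 6 fits without 1 library. The gene-wise model kept 5 of the 16 direct calls and ended those of USP11, USP12 and USP48 among these 7.

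The other 9 direct calls were lost in at least 1 fit without a library, and those of USP1, USP24, USP45, USP47 and USP53 were also lost when only library size was used for scaling. USP27X differed by −0.55 ± 0.19 (adjusted p = 0.0209), and its call was lost without either CCF642 library or CCF642-34 replicate 2, where it was −0.45 (adjusted p = 0.175). USP8 differed by −0.23, or −0.15 without CCF642 replicate 2 (adjusted p = 0.0521). USP14 differed by −0.15 ± 0.04 (adjusted p = 0.00499), or −0.14 without CCF642-34 replicate 1 (adjusted p = 0.0519). USP1 differed by −0.14, or −0.12 without CCF642-34 replicate 1 (adjusted p = 0.108). The difference of USP45 was −0.25, and it was −0.10 without CCF642 replicate 2 (adjusted p = 0.554) and −0.41 without CCF642 replicate 1, the single one of the 6 fits where the call held. The calls of USP24 (−0.14), USP47 (−0.12) and USP53 (−0.14) were lost in 5 of the 6 fits and that of USP5 (0.13, the increase) in all 6. Without CCF642 replicate 2, USP24 was at −0.09 (adjusted p = 0.27), USP53 at −0.08 (adjusted p = 0.274), USP47 at −0.09 (adjusted p = 0.178) and USP5 at 0.12 (adjusted p = 0.104).

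The remaining 28 members did not differ between the compounds at this threshold, which does not show that the compounds act alike on them. For 24 of the 28, the 95% interval of the difference lay within 1.5-fold in both directions. For USP22 the difference was 0.05 with an interval from −0.03 to 0.13. For USP13 it was 0.10 (−0.04 to 0.25), for USP46 0.10 (−0.17 to 0.38), for USP31 −0.01 (−0.19 to 0.17) and for USP49 0.08 (−0.08 to 0.24). USP25 had a difference of 0.06 (−0.08 to 0.19), USP19 of 0.05 (−0.05 to 0.16) and USP30 of 0.04 (−0.20 to 0.28). USP18 had the widest interval, from −0.75 to 0.24. Without CCF642 replicate 2, USP13 (0.23, adjusted p = 0.0147), USP32 (0.32, adjusted p = 0.00789) and USP20 (−0.28, adjusted p = 0.00452) were called, as was USP7 without CCF642 replicate 1 (−0.16, adjusted p = 0.00209).

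**Figure D4:**
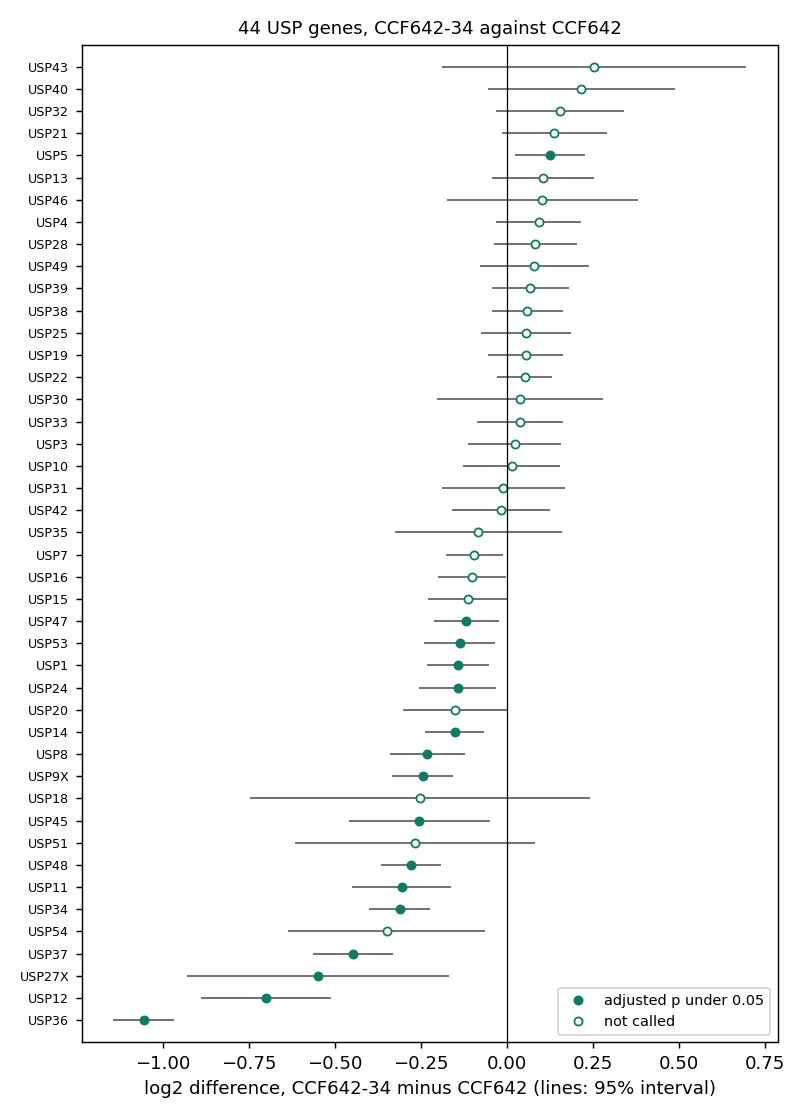
Difference in log2 expression between CCF642-34 and CCF642 (horizontal axis, negative is lower with CCF642-34) for 44 USP genes in order of the difference (vertical axis). Points are fitted values, lines are 95% intervals and filled points have an adjusted p under 0.05. USP36 lies farthest from 0 at −1.06, followed by USP12 at −0.70, and USP5 is the filled point above 0.

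Other genes of the deubiquitinase families and folds were taken from a fixed list, of which 35 were listed in the table. They are called other deubiquitinases here. The list went by family and fold, and whether each protein acts on ubiquitin was not checked. With CCF642, 21 of the 35 were higher (60.0%, against 31.8% of all genes) and 4 were lower (11.4%, against 31.3%). With CCF642-34, 16 were higher (45.7%, against 29.7%) and 7 were lower (against 27.9%). Their median log2 fold changes were 0.16 and 0.10, against 0.18 and 0.10 for the USP members. Directly, 5 were higher (14.3%, against 15.9%) and 12 were lower (34.3%, against 17.5%) with CCF642-34, with a median difference of −0.04. Without CCF642-34 replicate 2, 9 of the 35 were called in all. OTUD1, of the OTU family, rose by 1.53 and 0.96 on the log2 scale from a mean of 40.0 scaled CPM with DMSO, and its direct difference was −0.58 (adjusted p = 6.934e-11). JOSD1, of the Josephin family, rose by 1.21 and 0.82. PSMD14, the deubiquitinase of the proteasome lid, rose by 0.45 and 0.54.

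The largest called decreases per compound in the wider set were as follows. Smaller called decreases, among them PRPF8 (−0.12 and −0.26) and OTUD6B (−0.26 and −0.25), are not described further. OTUB2 fell by 0.66 with CCF642 at a mean of 2.46 scaled CPM with DMSO, and its CCF642-34 value of −0.45 was not called (adjusted p = 0.0746). BRCC3, which cuts lysine-63-linked chains in a complex with BRCA1, fell by 0.52 and 0.22 and was higher with CCF642-34 in the direct comparison (0.29, adjusted p = 0.00855). TNFAIP3, also called A20, a brake on NF-kappaB signalling, was at 0.05 with CCF642 (adjusted p = 0.293) and fell by 0.62 with CCF642-34, with a direct difference of −0.67 (adjusted p = 1.433e-17). OTUD3 fell by 0.37 with CCF642-34 against DMSO, and its CCF642 value of −0.17 against DMSO was not called. STAMBP and COPS6, both of the JAMM family, were higher with CCF642-34 in the direct comparison by 0.21 and 0.16.

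Among 13 listed partners of USP enzymes, 5 rose and 2 fell with CCF642, 4 rose and 4 fell with CCF642-34, and 1 was higher and 2 were lower directly. The shares called were 53.8%, 61.5% and 23.1%, against 63.1%, 57.6% and 33.4% of all genes. ISG15, the protein that USP18 removes, rose by 0.74 with CCF642 from a mean of 3.69 scaled CPM with DMSO (adjusted p = 9.508e-05), was at 0.25 with CCF642-34 (adjusted p = 0.176) and had a direct difference of −0.48 (adjusted p = 0.0169). G3BP1, a stress granule protein that binds USP10, fell by 0.33 and 0.32. WDR48, the activator of USP1, USP12 and USP46, was chosen after its values were seen. It rose by 0.66 with CCF642 (adjusted p = 2.012e-15) and by 0.41 with CCF642-34 (adjusted p = 5.143e-09), and its direct difference was −0.26 (adjusted p = 0.000134).

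**Figure D5:**
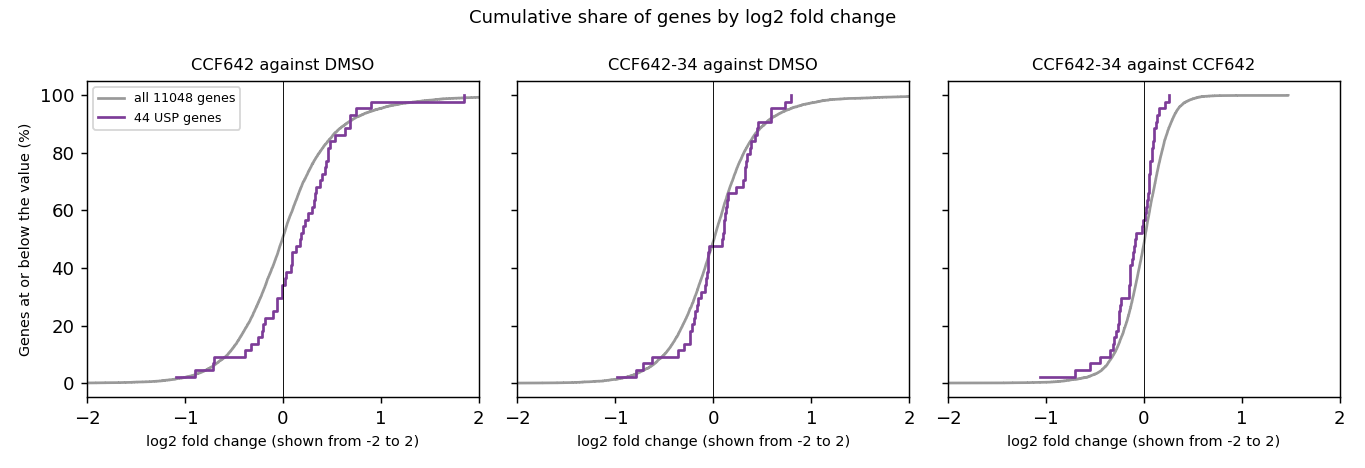
Cumulative share of genes (vertical axis, percent) by log2 fold change (horizontal axis, shown from −2 to 2) in the 3 comparisons, for the 44 USP genes (purple) and all 11048 listed genes (grey). The USP medians were 0.18, 0.10 and −0.09, against −0.01, 0.01 and 0.01 over all genes, and the curves overlap over much of the range.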

How the data were processed

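The authors deposited CPM values of 11048 gene symbols for 6 libraries (3 groups of 2). The submitters' processing notes name STAR, edgeR 3.24.3, limma 3.38.3 and hg19, and the strand and multi-mapping settings are not given in the sources used here. CPM were divided by TMM factors (edgeR 4.0.16), given a pseudocount of 1 and put on the log2 scale. One model with limma 3.58.1 in R 4.3.3 held all 3 groups, with a variance trend, no replicate block, 3 residual degrees of freedom and a prior of 42.9. Tests were two-sided and adjusted over all genes. The paper's criterion is 2-fold with p under 0.05, and it names no test.

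Reads were recovered from the deposited CPM, 100% of whose values were whole multiples of 1 read within 0.1. For the CCF642-34 libraries, with lowest values of 5 and 3 reads, 1 read was taken as the smallest gap between values and no count test was run. Every gene reached at least 1.505 CPM in a library, so lower genes had been left out, and the listed genes held 99.9% of the reads. Reads lack molecular identifiers, so depth speaks for counting error only. Exon lengths and overlaps came from GENCODE release 29. None of the overlapping genes named above was among the listed genes, so their levels are not known here.

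The members and lists were chosen with earlier results of these data known. The genes named are, for each compound against DMSO, the 10 largest called changes in each direction, 5 for the direct comparison, 8 fixed members, every 2-fold member, and each member of a role group described. Of other deubiquitinases and partners, the 3 largest in each direction per comparison were named. Scripts were tested on simulated data. Alternatives were other size factors, pseudocounts of 0.5 and 2, a mean CPM minimum of 5, fits of 2 groups, a replicate block, a gene-wise linear model, fits without each library, and edgeR and DESeq2 (1.42.0) on recovered reads. The 6 columns of the table of the whole series held the same values as the files of the single libraries.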

Additional observations from a re-analysis of the deposited data

How the results depend on the processing

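No called member changed direction under any alternative run. With library size alone, the members' median was 0.073 (CCF642 against DMSO), 0.0063 (CCF642-34 against DMSO) and −0.046 (CCF642-34 against CCF642), and members not called changed sign: with CCF642, USP24 (−0.045), USP33 (−0.050), USP34 (−0.037), USP39 (−0.10) and USP45 (−0.11), and directly USP31 (0.032) and USP42 (0.027). With a mean CPM of at least 5 the medians were 0.12, 0.023 and −0.05, since 4 members leave. The 2-fold count was 1 with CCF642 at a pseudocount of 2, and 1 with CCF642-34 at a pseudocount of 0.5 or with library size alone. The gene-wise model, which shares no spread between genes, called 24 members with CCF642 (23 of the 30), 18 with CCF642-34 (17 of the 29) and 6 directly (5 of the 16, and 1 at 1.5-fold), and 15 (CCF642-34) and 5 (directly) other deubiquitinases.

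Libraries of equal replicate number did not deviate together across all genes (correlations of deviations −0.01, −0.06 and 0.05). The labels do not say whether libraries of equal number were handled together. With the number as a replicate block, 30 of 30, 29 of 29 and 14 of 16 calls were kept, and the direct calls of USP5 and USP47 were lost, while USP32 with CCF642 and USP54 directly were called. edgeR and DESeq2 on recovered reads kept 29 and 28 of the 30 CCF642 calls (USP4 lost in both, USP30 in DESeq2). They were not run for CCF642-34: its values were whole multiples of the smallest gap too, but its lowest values above 0 came to 5 and 3 reads, so the worth of 1 read is less certain.

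Fits without 1 library take the lone library to vary like the other groups. In the order of comparisons above, they called 25 to 32, 19 to 31 and 9 to 15 members, 9 to 11, 6 to 9 and 2 to 3 at 1.5-fold, and 1 to 3, 0 to 1 and 1 to 1 at 2-fold. Other deubiquitinases called were 20 to 24, 18 to 23 and 9 to 15, and medians ran from 0.12 to 0.21, 0.026 to 0.10 and −0.089 to −0.029. The lowest CCF642-34 count, 19, came without DMSO replicate 1, and the lowest direct counts, 9 and 10, without CCF642-34 replicates 1 and 2. Members not called spanned 0. With CCF642 these were USP1 (−0.040 to 0.020), USP39 (−0.0043 to 0.066), USP43 (−0.11 to 0.45), USP45 (−0.14 to 0.17) and USP54 (−0.17 to 0.15), and with CCF642-34 USP12 (−0.19 to 0.064), USP27X (−0.074 to 0.34), USP40 (−0.0011 to 0.23) and USP51 (−0.19 to 0.033). Directly they were USP3 (−0.023 to 0.071), USP10 (−0.052 to 0.079), USP13 (−0.022 to 0.23), USP18 (−0.58 to 0.069), USP19 (−0.045 to 0.16), USP30 (−0.063 to 0.14), USP31 (−0.067 to 0.048), USP32 (−0.015 to 0.32), USP33 (−0.024 to 0.098), USP35 (−0.17 to 0.010) and USP42 (−0.046 to 0.013). At this depth, USP18, USP27X, USP43 and USP51 have the widest errors.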
